A study of Mus musculus with 9 samples.

Results

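The genes described here are 34 mouse genes of the NRF2 antioxidant programme: the transcription factor gene Nfe2l2 itself, its inhibitor gene Keap1, known target genes of NRF2 and general antioxidant enzymes. They are the genes of a named list, matched by symbol, and all 34 were found among the 24411 gene rows of the files. All 34 also passed the filter on low counts, as did 11002 genes in all. RNA had been sequenced from primary microglia, the resident macrophages of the brain, prepared from the brains of ICR pups, an outbred mouse strain, at 3 days of age. Mixed glial cultures were shaken to release the cells, which rested for 24 h after plating and were treated for 4 h in 3 groups of 3 libraries. The R848 group received 1 µM R848 (resiquimod), an agonist of the endosomal receptor TLR7, the IFN-α group received 100 U/ml of recombinant mouse IFN-α, a type I interferon, and the combined group received both at these doses. No genetic change is given for any group, and untreated cells were not analysed here, so every value below sets treated groups against each other. Whether a level was raised by one agent or lowered by the other cannot be told apart.

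NRF2 is a transcription factor whose protein is held low by KEAP1, an adaptor that presents it to a ubiquitin ligase for degradation. Oxidants and electrophiles modify cysteines of KEAP1, NRF2 then accumulates, pairs with a small MAF protein and binds antioxidant response elements near genes for glutathione synthesis, thioredoxin recycling, NADPH supply, haem breakdown and drug conjugation. Macrophages and microglia make superoxide and nitric oxide when they are activated, and these enzymes are known for limiting the damage to the cell itself. NRF2 is controlled largely through the stability of its protein, which RNA counts do not measure.

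Gene counts per library ran from 2505941 to 3298567 in 8 libraries and reached 6005578 in combined replicate 3. Log2 CPM correlated across genes at 0.969 or more within groups and at 0.905 or less between groups. R848 replicate 1 had the lowest within-group correlation. The microglial marker C1qa was abundant, at 399.8 CPM or more in each library, whereas the microglial marker Tmem119 was at 4.11 CPM at most and P2ry12 averaged 2.41 CPM with R848, 40.8 CPM under IFN-α and 9.12 CPM under both. The summed level of 14 microglial markers was 3051 to 3603 CPM in the R848 libraries, 4538 to 4717 CPM under IFN-α and 3489 to 3934 CPM under both. The summed level of 11 astrocyte markers, Gfap and Aqp4 among them, was 1459 to 1716, 1165 to 1469 and 2395 to 3443 CPM in the same order. Of the 10 that were tested, 9 were called higher with both than with R848 and none lower, beside 19.2% and 16.7% of all genes. In that comparison 5 of 14 microglial markers were higher and 4 lower, and all 3 endothelial markers tested were higher. Between the single agents 2 astrocyte markers were higher and 4 lower with R848, beside 18.4% and 19.0% of all genes. Of the 14 microglial markers 1 was higher and 8 lower there. With both against IFN-α 5 astrocyte markers were higher and none lower, beside 18.5% and 14.7% of all genes. In this last comparison 1 microglial marker was higher and 9 were lower. The summed level of 6 markers of other leukocytes was 11.6 to 14.6, 6.04 to 6.19 and 8.45 to 9.5 CPM with R848, IFN-α and both. The neutrophil gene S100a8 gave nearly all of it and was called higher with R848 than with IFN-α (1.16 ± 0.25 on the log2 scale), while the neutrophil gene S100a9 and the lymphocyte gene Nkg7 were at 0 in each library. In such bulk samples fewer cells of a type and less RNA per cell cannot be told apart. The part of astrocyte, endothelial or other leukocyte RNA in the results below was not tested.

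The core of the antioxidant response element, TGACNNNGC on either strand, was searched in RefSeq promoter windows of 300 bases (250 before and 50 after the start of transcription, build GRCm38.p6). Of the 34 genes 28 had a window, and 11 of them (39.3%) held the core, beside 14.0% of the 27025 genes with a window. A gene was counted if any of its windows held the core. The 28 genes had 38 windows and the 27025 genes had 32851, and the shares were not adjusted for the number of windows per gene. The 11 were Nfe2l2, Mafg, Gclm, Txnrd1, Srxn1, Prdx1, G6pdx, Pgd, Me1, Mgst1 and Sod1. Gclc, Gsr, Prdx6, Hmox1, Gsta4 and Abcc1 had no window in the table. The sequences below are those of 5 genes that carry the main patterns of level described further on and whose match lies before the start, shown on the strand of the gene, 5′ to 3′, with the match in capitals and cut off where an annotated exon begins. The Gclm stretch is chr3:122245307-122245556 on the plus strand, the Txnrd1 stretch chr10:82858956-82859178 on the plus strand, the Mafg stretch chr11:120633601-120633797 on the minus strand, the Prdx1 stretch chr4:116685349-116685543 on the plus strand and the Nfe2l2 stretch chr2:75704664-75704913 on the minus strand.
Gclm: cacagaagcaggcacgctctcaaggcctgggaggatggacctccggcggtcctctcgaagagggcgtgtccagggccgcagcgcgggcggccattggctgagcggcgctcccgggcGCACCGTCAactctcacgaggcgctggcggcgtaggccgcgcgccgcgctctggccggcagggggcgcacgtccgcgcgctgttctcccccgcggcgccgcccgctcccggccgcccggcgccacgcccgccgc
Txnrd1: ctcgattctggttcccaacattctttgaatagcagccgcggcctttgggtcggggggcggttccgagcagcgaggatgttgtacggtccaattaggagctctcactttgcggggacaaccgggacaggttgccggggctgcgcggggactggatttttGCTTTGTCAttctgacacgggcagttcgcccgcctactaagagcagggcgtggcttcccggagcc
Mafg: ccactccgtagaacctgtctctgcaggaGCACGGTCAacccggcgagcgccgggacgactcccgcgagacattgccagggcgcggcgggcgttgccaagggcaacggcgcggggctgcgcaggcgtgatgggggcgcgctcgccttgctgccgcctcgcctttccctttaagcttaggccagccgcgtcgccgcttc
Prdx1: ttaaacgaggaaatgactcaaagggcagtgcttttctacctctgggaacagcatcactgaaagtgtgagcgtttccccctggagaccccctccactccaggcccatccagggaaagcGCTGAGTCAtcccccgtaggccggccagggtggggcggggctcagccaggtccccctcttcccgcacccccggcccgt
Nfe2l2: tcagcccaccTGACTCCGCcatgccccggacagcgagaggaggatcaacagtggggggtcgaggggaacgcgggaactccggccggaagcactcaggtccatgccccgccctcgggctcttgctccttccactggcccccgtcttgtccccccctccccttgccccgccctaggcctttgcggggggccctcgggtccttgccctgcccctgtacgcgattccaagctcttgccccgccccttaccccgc
The match begins 134 bases before the start of Gclm, 92 before one of the annotated starts of Txnrd1, 222 before that of Mafg, 133 before that of Prdx1 and 240 before that of Nfe2l2. In Prdx1 it overlaps a match to TGANTCA, the site of AP-1, a transcription factor of the immediate early response, which 4 of the 28 genes (Srxn1, Prdx1, Me1 and Osgin1) and 8.97% of all genes held. The core of the interferon-stimulated response element, GAAA, any 2 bases and GAAA again, was in no window of the 28 genes and in 3.99% of all genes. With only 28 genes, none is close to that share. These matches describe the letters of the windows and do not show binding.

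Most of the 34 genes were higher with R848 than with IFN-α, and most of those were lower again when IFN-α was given together with R848. Between the single agents 23 were higher and 2 lower with R848 (edgeR quasi-likelihood F test, Benjamini-Hochberg adjusted p under 0.05 over all genes tested), where 18.4% of all genes tested were called higher and 19.0% lower. The median log2 fold change was 0.82 for the 34 genes and 0.02 for all genes. With both agents against R848 alone 5 were higher and 18 lower, beside 19.2% and 16.7% of all genes, with medians of -0.33 and -0.03. With both agents against IFN-α alone 18 were higher and 3 lower, beside 18.5% and 14.7% of all genes, with medians of 0.46 and -0.01. Calls of at least 2-fold were made for 15 genes higher and 1 lower between the single agents, where 6.91% and 9.6% of all genes had such calls. Against R848 alone they were made for 1 higher and 10 lower, beside 8.88% and 3.7% of all genes. Against IFN-α alone they were made for 9 higher and none lower, beside 6.95% and 4.38% of all genes.

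The comparisons share groups, so they are 3 views of the same 9 libraries. The commonest pattern was a level highest with R848, lowest with IFN-α and in between with both, each step passing the test. It was seen in 12 genes (Abcc1, Blvrb, Esd, Gclc, Gclm, Gsr, Hmox1, Mafg, Slc7a11, Sqstm1, Srxn1 and Txnrd1), and its share of all genes was not counted. With library totals alone the step from IFN-α to both was not called for Blvrb, Gclc, Gclm, Gsr and Mafg. Without R848 replicate 2 the step from R848 to both was not called for Esd. Prdx1, Txn1 and Prdx6 were higher with both agents than with either alone, beside 7.33% of all genes called above both, and no member was called below both (2.82% of all genes). In a single test over the 3 groups 26 of the 34 were called, beside 50.3% of all genes, and Gss, Taldo1, Me1, Nqo1, Gsta4, Sod1, Gpx1 and Gpx4 were not.

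The count of higher calls in the combined group rests on how the libraries were scaled. With library totals alone, in place of the TMM factors used here, the median log2 fold change of all genes moved by -0.39 for both against R848, by -0.31 for both against IFN-α and by 0.08 between the single agents. The 34 genes then gave 1 higher and 25 lower against R848, beside 10.7% and 45.3% of all genes. Against IFN-α they gave 12 higher and 7 lower, beside 9.49% and 34.2% of all genes, and none lay above and 4 below both single agents. Between the single agents they gave 24 higher and 2 lower, beside 20.1% and 16.0% of all genes. With upper-quartile factors the median moved by -0.13 against R848, and 3 lay above and 1 below both single agents.

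**Figure D1:**
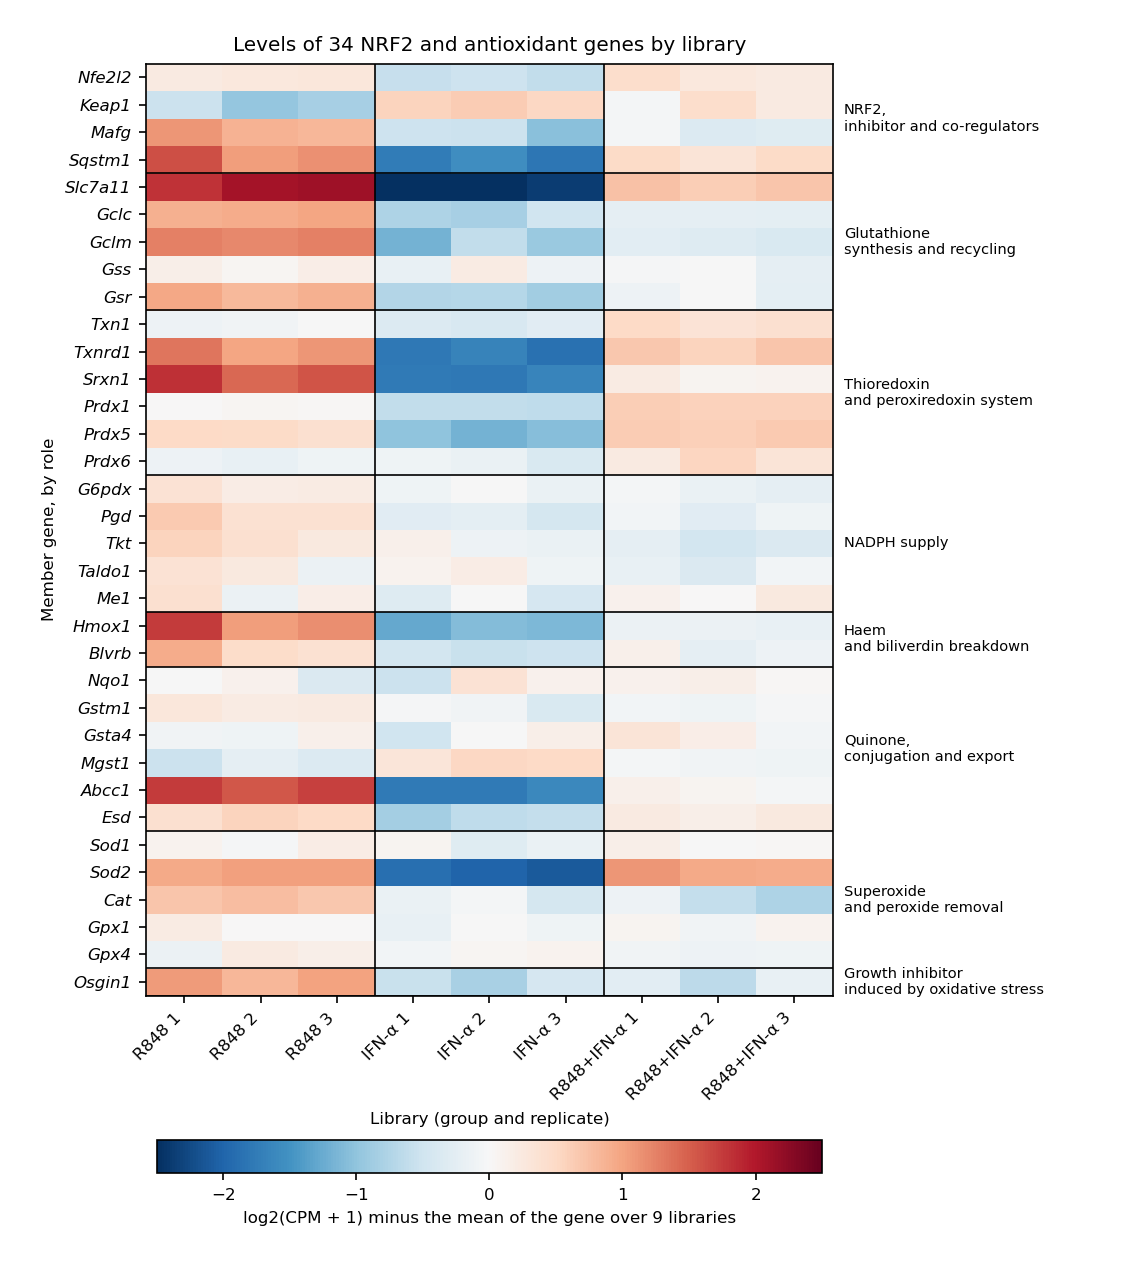
Level of each of the 34 genes (rows, by role) in each of the 9 libraries (columns), as log2(CPM + 1) minus the gene's mean over the libraries, with red above and blue below that mean. Slc7a11, Srxn1, Abcc1 and Hmox1 are darkest red with R848 and blue with IFN-α, Keap1 and Mgst1 show the opposite, and Prdx1 and Txn1 are reddest with both agents.

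**Figure D2:**
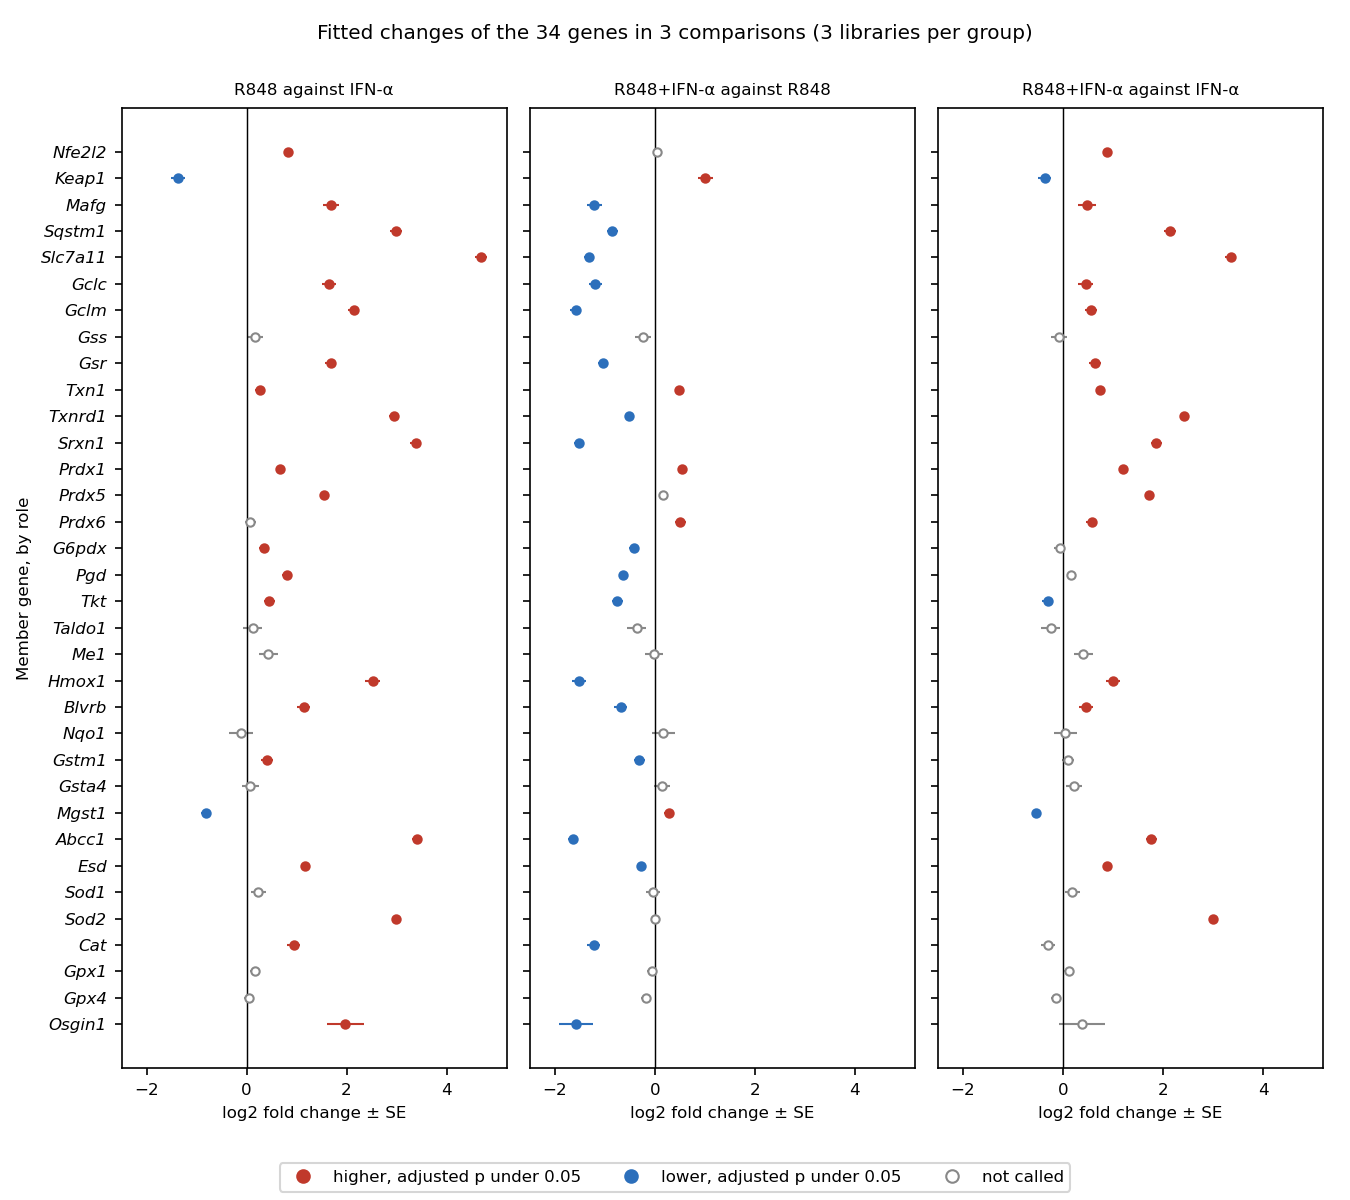
Fitted log2 fold change ± SE of each gene (rows) in the 3 comparisons (panels), with filled points where the adjusted p was under 0.05. In the left panel 23 points are filled to the right of 0, in the middle panel 18 are filled to the left, and in the right panel 18 are filled to the right.

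Among the regulators, Nfe2l2 was higher in both groups that had received R848, and Keap1 was lower in them than with IFN-α. Nfe2l2, which encodes NRF2 (chromosome 2, 75675513 to 75704641, minus strand, GRCm38), was at 541, 558 and 560.4 CPM in the R848 libraries, 311, 322 and 299 CPM in the IFN-α libraries and 629, 553 and 539 CPM in the combined libraries. All IFN-α libraries lay below the others, and the R848 and combined libraries overlapped. The log2 fold change ± SE was 0.83 ± 0.084 for R848 against IFN-α (adjusted p = 1.27e-09) and 0.88 ± 0.085 for both against IFN-α. For both against R848 it was 0.05 ± 0.083 (adjusted p = 0.663, 95% interval -0.11 to 0.21), and with library totals alone it was -0.34 and was called lower (adjusted p = 0.0251).

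Keap1 (chromosome 9, 21229730 to 21239361, minus strand) was at 31.5, 23.1 and 25.5 CPM in the R848 libraries, 68.5, 72.4 and 66.8 under IFN-α and 44.8, 62.6 and 54.5 under both agents. The 3 groups did not overlap, and the combined libraries lay in between. Keap1 was 2.58-fold lower with R848 than with IFN-α (log2 fold change -1.37 ± 0.14, adjusted p = 3.11e-09), the largest decrease among the 34 genes in that comparison. It was 2.01-fold higher with both than with R848 (1.01 ± 0.15, adjusted p = 1.80e-06). The call against IFN-α alone (-0.36 ± 0.13, adjusted p = 0.0380) ended with the DESeq2 Wald test (adjusted p = 0.0841) and when IFN-α replicate 1, 2 or 3 or combined replicate 1 or 3 was left out (adjusted p from 0.065 to 0.21).

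Sqstm1, which encodes p62, an autophagy receptor that binds KEAP1, is on chromosome 11 (50199366 to 50210827, minus strand). It was at 2902, 1976 and 2096 CPM in the R848 libraries, 283, 325 and 270.3 under IFN-α and 1333, 1197 and 1329 under both agents, with no overlap. It was 7.94-fold higher with R848 than with IFN-α (2.99 ± 0.12), and the combined group lay 1.81-fold below R848 (-0.85 ± 0.11) and 4.40-fold above IFN-α (2.14 ± 0.12). R848 replicate 1 was the highest library, and without it the first change was 2.78 and the decrease with both was -0.65, both still called.

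Mafg encodes a small MAF protein, the DNA-binding partner of NRF2 (chromosome 11, 120625117 to 120633600, minus strand). Its level was 61.3, 51.6 and 50.4 CPM in the R848 libraries, 19.0, 18.8 and 13 under IFN-α and 26.9, 21.6 and 22.3 under both agents. The combined libraries lay close above the IFN-α libraries and far below the R848 libraries, at -1.21 ± 0.15 against R848 (adjusted p = 1.40e-07). The small difference from IFN-α (0.48 ± 0.18, adjusted p = 0.0406) was not called with the DESeq2 Wald test, upper-quartile factors, library totals or unstranded counts, nor without IFN-α replicate 3 or combined replicate 1 or 3 (adjusted p from 0.0637 to 0.48). Mafg shares 124 bases of exon on the same strand with Sirt7, and 3.26% of its reads over all libraries lay on the opposite strand.

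**Figure D3:**
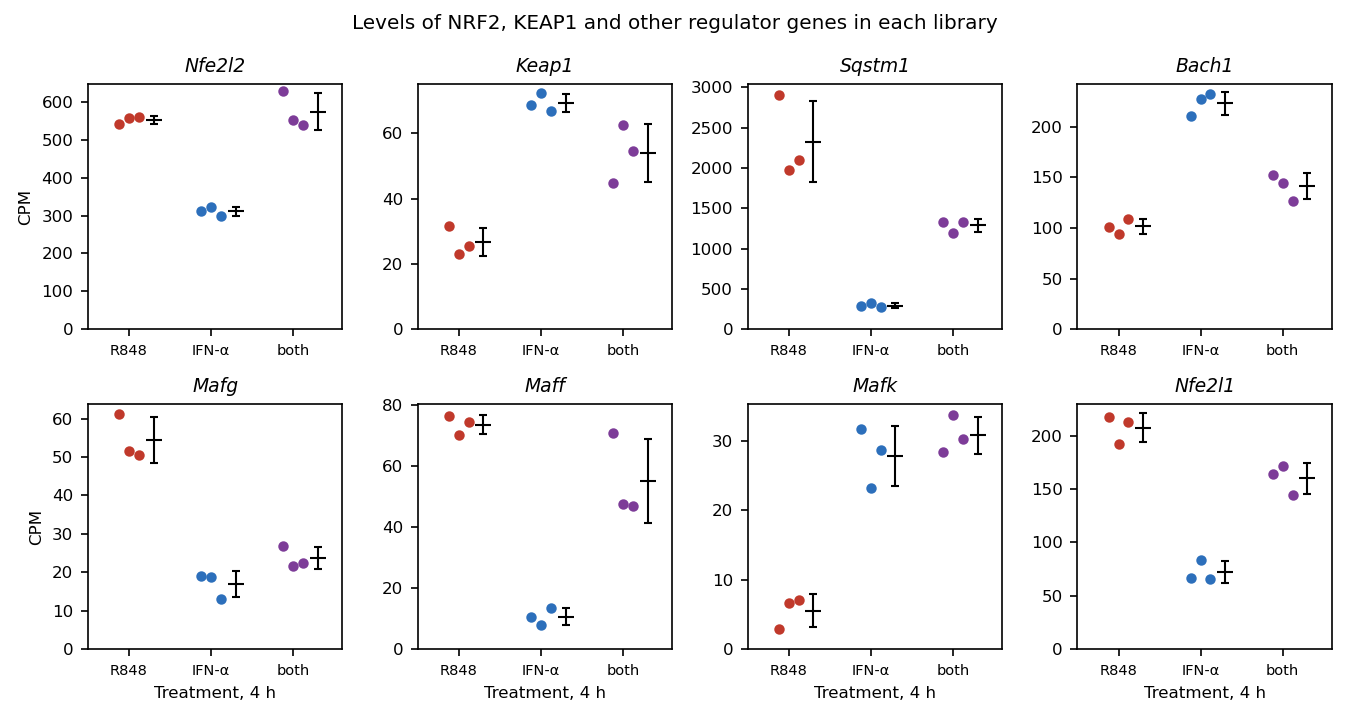
CPM of 8 regulator genes in each library (points, by treatment), with the mean and SD of each group beside them and each vertical axis starting at 0. Nfe2l2 is near 311 CPM with IFN-α and above 500 CPM in the 6 libraries with R848, Keap1 and Bach1 are highest with IFN-α, and Mafk is at 7.11 CPM or less in each library with R848 alone.

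The genes for glutathione synthesis and recycling moved together except Gss. Of 5 genes 4 were higher with R848 than with IFN-α, and the same 4 (Slc7a11, Gclc, Gclm and Gsr) were lower with both agents than with R848 and higher than with IFN-α. Slc7a11, the cystine transporter xCT that brings in the limiting precursor of glutathione, had the largest change of the 34 genes between the single agents (chromosome 3, 49892526 to 50443614, minus strand). It was at 1545, 1877 and 1911 CPM in the R848 libraries, 58.1, 64.1 and 84.0 under IFN-α and 737, 679 and 719 under both agents. The groups were far apart, at 25.7-fold between the single agents (4.69 ± 0.12, adjusted p = 3.84e-24), 2.5-fold lower with both than with R848 (-1.32 ± 0.099) and 10.3-fold higher with both than with IFN-α (3.36 ± 0.11). In the IFN-α libraries 14.7% of its reads lay on the opposite strand and were not counted.

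Gclc and Gclm encode the catalytic and the modifier subunit of glutamate-cysteine ligase, the rate-limiting enzyme of glutathione synthesis. Gclm (chromosome 3, 122245557 to 122270732, plus strand), whose promoter stretch is shown above, was at 257, 247 and 257 CPM in the R848 libraries, 46.5, 69.9 and 56.0 under IFN-α and 88.5, 85.1 and 81.6 under both agents. Gclc (chromosome 9, 77754535 to 77794485, plus strand) was at 70.9, 72.5 and 75.5 CPM, 21.7, 21.0 and 26.7 CPM, and 32.1, 32.4 and 31.8 CPM in the same order. Both genes had their combined libraries just above the IFN-α libraries, with no overlap. Against R848 the combined group was lower by a log2 fold change of -1.58 ± 0.11 for Gclm (adjusted p = 2.83e-13) and -1.19 ± 0.13 for Gclc (adjusted p = 7.15e-09). Against IFN-α it was higher by 0.56 ± 0.12 for Gclm (adjusted p = 0.000441) and 0.46 ± 0.15 for Gclc (adjusted p = 0.0164). Neither of these last differences was called with library totals alone (0.24 and 0.15, adjusted p = 0.205 and 0.509), and that of Gclc was not called without IFN-α replicate 1 or 2 (adjusted p = 0.064 and 0.0836).

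Gsr, glutathione reductase, which restores reduced glutathione with NADPH (chromosome 8, 33652523 to 33698163, plus strand), was at 153, 138 and 145 CPM in the R848 libraries, 46.5, 47.1 and 42.3 under IFN-α and 71.3, 77.3 and 65.8 under both agents. The order was that of Gclm, with log2 fold changes of 1.68 ± 0.11 for R848 against IFN-α, -1.03 ± 0.10 for both against R848 and 0.65 ± 0.12 for both against IFN-α, the last not called with library totals alone (0.34, adjusted p = 0.0545). Gss, glutathione synthetase, which completes the tripeptide, was at 28.9 ± 1.18, 25.9 ± 3.91 and 24.9 ± 2.06 CPM (mean ± SD, n = 3) and was not called in any comparison. Its largest fitted change was -0.23 ± 0.16, with a 95% interval of -0.54 to 0.07, for both against R848, and with library totals alone this was -0.62 and called lower (adjusted p = 0.0031).

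The thioredoxin and peroxiredoxin genes did not follow a single pattern. Of 6 genes 5 were higher with R848 than with IFN-α and all 6 were higher with both than with IFN-α, while against R848 the combined group had 3 higher (Txn1, Prdx1 and Prdx6) and 2 lower (Txnrd1 and Srxn1). Txnrd1, cytosolic thioredoxin reductase, a selenoprotein that recycles thioredoxin (chromosome 10, 82833951 to 82897712, plus strand), was at 1422, 1116 and 1199.5 CPM in the R848 libraries, 161, 175 and 153 under IFN-α and 895, 824 and 908 under both agents. Its combined libraries were nearer to R848 than to IFN-α, at 1.42-fold below R848 (-0.51 ± 0.088) and 5.38-fold above IFN-α (2.43 ± 0.097). Srxn1, sulfiredoxin, which repairs over-oxidised peroxiredoxins (chromosome 2, 152105516 to 152111376, plus strand), was at 598, 457 and 504 CPM in the R848 libraries, 48.8, 47.8 and 53.1 under IFN-α and 193, 175 and 179 under both agents. It was 10.4-fold higher with R848 than with IFN-α (3.38 ± 0.11, adjusted p = 2.52e-21), and the combined group was 2.85-fold below R848 (-1.51 ± 0.097).

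Prdx1, a cytosolic peroxiredoxin that reduces hydrogen peroxide with electrons from thioredoxin (chromosome 4, 116685544 to 116700822, plus strand), was at 2582, 2669 and 2628 CPM in the R848 libraries, 1676, 1671 and 1647 under IFN-α and 3920, 3824 and 3811 under both agents. Its combined libraries lay above all others, 1.47-fold above R848 (0.55 ± 0.072, adjusted p = 2.76e-07) and 2.31-fold above IFN-α (1.21 ± 0.073, adjusted p = 2.33e-14). Txn1, thioredoxin itself, showed the same order at 307 ± 14.2, 255 ± 11.7 and 430.4 ± 23.4 CPM, with 0.49 ± 0.084 for both against R848 and 0.26 ± 0.086 for R848 against IFN-α. Prdx6, a peroxiredoxin that uses glutathione, was at 83.1 ± 2.66, 79.1 ± 8.15 and 119 ± 13.6 CPM, with 0.51 ± 0.11 for both against R848 and no call between the single agents (0.07 ± 0.11). With library totals alone the changes against R848 were 0.16 for Prdx1, 0.10 for Txn1 and 0.12 for Prdx6 (adjusted p = 0.264, 0.537 and 0.472), and that of Prdx6 against IFN-α was 0.27 (adjusted p = 0.1). The call of Txn1 between the single agents ended without IFN-α replicate 2 or R848 replicate 3 (adjusted p = 0.0843 and 0.0658). The summed astrocyte markers were likewise highest in the combined libraries, and their part in these 3 results was not tested.

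Prdx5, a peroxiredoxin of mitochondria, peroxisomes and cytosol (chromosome 19, 6906697 to 6910106, minus strand), was at 801, 796 and 756 CPM in the R848 libraries, 282, 252 and 270.3 under IFN-α and 890.1, 859.9 and 894 under both agents. The IFN-α libraries stood well below the others, at 1.55 ± 0.082 for R848 against IFN-α and 1.72 ± 0.082 for both against IFN-α. The combined libraries all lay above the R848 libraries, but this difference was not called (0.17 ± 0.079, adjusted p = 0.0954). It was called higher without R848 replicate 1 (0.20, adjusted p = 0.0284), and with library totals alone it was -0.22 (adjusted p = 0.125).

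Hmox1 and Blvrb, which break down haem and biliverdin, were highest with R848. Hmox1 encodes haem oxygenase-1, the inducible enzyme that cleaves haem into biliverdin, iron and carbon monoxide (chromosome 8, 75093621 to 75100589, plus strand). It was at 2047, 1255 and 1357 CPM in the R848 libraries, 249.7, 285 and 277 under IFN-α and 545, 547 and 534 under both agents. The groups did not overlap, although R848 replicate 1 was far above the other R848 libraries. The changes were 5.73-fold between the single agents (2.52 ± 0.15, adjusted p = 9.75e-10), 2.87-fold lower with both than with R848 (-1.52 ± 0.14, adjusted p = 4.07e-07) and 2.00-fold higher with both than with IFN-α (1.00 ± 0.14). Without R848 replicate 1 the changes that involve R848 alone were 2.25 and -1.26, and both were still called.

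Blvrb, biliverdin reductase B (chromosome 7, 27447978 to 27466144, plus strand), was at 166, 119 and 112 CPM in the R848 libraries, 62.3, 58.3 and 59.8 under IFN-α and 94.9, 73.4 and 79.2 under both agents. It had the same order as Hmox1 with smaller steps, at 1.14 ± 0.13 for R848 against IFN-α and -0.68 ± 0.13 for both against R848, and again R848 replicate 1 was highest. The step from IFN-α to both (0.46 ± 0.14, adjusted p = 0.0102) was not called with library totals alone or without combined replicate 1 (adjusted p = 0.438 and 0.0843).

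**Figure D4:**
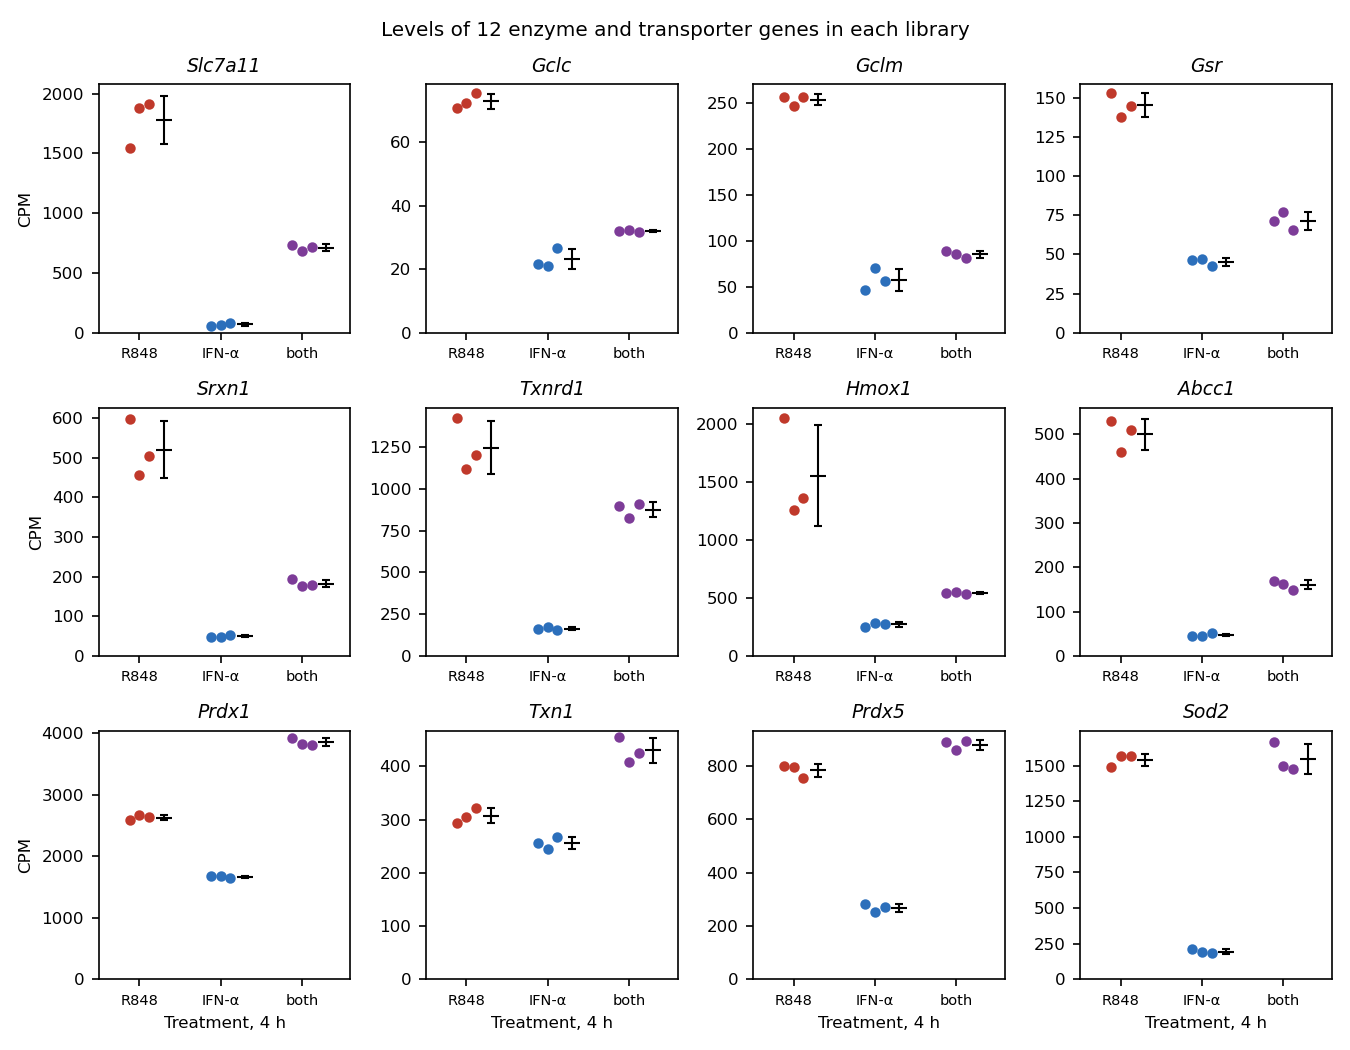
CPM of 12 enzyme and transporter genes in each library (points, by treatment), with the mean and SD of each group beside them and each vertical axis starting at 0. Combined libraries lie between the single agents for the first 8 genes, above both for Prdx1 and Txn1, and with or close to R848 for Prdx5 and Sod2.

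Differences in the NADPH-supplying genes were smaller. G6pdx and Pgd, the dehydrogenases of the pentose phosphate pathway, and Tkt, its transketolase, were higher with R848 than with IFN-α by 0.35 ± 0.10, 0.80 ± 0.093 and 0.45 ± 0.11, all under 2-fold. With both agents the same 3 were lower than with R848 by log2 fold changes of -0.41 ± 0.10, -0.63 ± 0.092 and -0.75 ± 0.11. Group means were 113, 89.2 and 85.9 CPM for G6pdx, 517, 298 and 335 CPM for Pgd and 137, 100.1 and 81.2 CPM for Tkt with R848, IFN-α and both. Tkt was also called lower with both than with IFN-α (-0.30 ± 0.11, adjusted p = 0.0442), a call that ended with the DESeq2 Wald test or no filter (adjusted p = 0.0951 and 0.052) and without IFN-α replicate 1 or 2, R848 replicate 2 or combined replicate 2 or 3 (adjusted p from 0.0513 to 0.253). Taldo1, transaldolase, and Me1, malic enzyme, were low, with means from 15.5 to 20.2 CPM and from 15.6 to 21.0 CPM, and neither was called with TMM factors and all libraries. With library totals alone G6pdx and Taldo1 were called lower with both than with IFN-α (-0.37 and -0.56, adjusted p = 0.0285 and 0.0247). Taldo1 was also called lower than with R848 under library totals (-0.75, adjusted p = 0.00149) and upper-quartile factors (-0.49, adjusted p = 0.0359). Me1 was called higher with R848 than with IFN-α under both of these scalings and without R848 replicate 2 or IFN-α replicate 2 (0.48 to 0.57, adjusted p from 0.0291 to 0.0478).

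Among genes of quinone reduction, conjugation and export, Abcc1 and Esd carried most of the difference. Abcc1 encodes MRP1, a pump that exports glutathione conjugates (chromosome 16, 14361558 to 14475737, plus strand). It was at 529.6, 460.3 and 509.7 CPM in the R848 libraries, 45.3, 44.9 and 50.6 under IFN-α and 169.9, 163 and 149.8 under both agents. This gave 10.6-fold between the single agents (3.41 ± 0.10, adjusted p = 4.83e-22), and with both agents the largest decrease of the 34 genes against R848, 3.11-fold (-1.64 ± 0.092, adjusted p = 2.22e-15). Esd, an esterase that hydrolyses S-formylglutathione (chromosome 14, 74732297 to 74750765, plus strand), was at 742, 834 and 795 CPM, 314, 364 and 374 CPM, and 659.6, 624 and 664 CPM in the same order. Its combined libraries were only just below the R848 libraries (-0.28 ± 0.084, adjusted p = 0.00874), a call that ended without R848 replicate 2 (-0.24, adjusted p = 0.0535), and well above the IFN-α libraries (0.89 ± 0.086).

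Nqo1, the quinone reductase often used as a readout of NRF2, was low in each library, from 7.74 to 15.2 CPM, and its groups overlapped. No comparison called it, and the 95% interval for R848 against IFN-α ran from -0.58 to 0.34, which leaves out changes of the size seen for Gclm or Hmox1. Mgst1, a membrane-bound glutathione transferase, was with Keap1 the other gene lower with R848, at 132 ± 13.9, 231 ± 19.7 and 160.3 ± 3.27 CPM (-0.82 ± 0.099 for R848 against IFN-α and -0.53 ± 0.098 for both against IFN-α). Its increase from R848 to both (0.28 ± 0.10, adjusted p = 0.0261) was not called with upper-quartile factors (0.15, adjusted p = 0.233) or without R848 replicate 1 or combined replicate 1, 2 or 3 (adjusted p from 0.0548 to 0.0711), and turned to -0.11 with library totals alone.

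Gstm1, a cytosolic glutathione transferase, differed little, at 79.6 ± 2.08, 60.1 ± 7.58 and 64.1 ± 1.58 CPM. It was higher with R848 than with IFN-α (0.41 ± 0.12, adjusted p = 0.00509), not called without IFN-α replicate 3 (adjusted p = 0.069), and lower with both than with R848 (-0.31 ± 0.11, adjusted p = 0.0332). The latter call ended with the DESeq2 Wald test or no filter (adjusted p = 0.092 and 0.0577) and without R848 replicate 2 or 3 or combined replicate 1, 2 or 3 (adjusted p from 0.0549 to 0.0937). Gsta4, a transferase for lipid aldehydes, was at 30.3 to 36.3 CPM on average and was not called.

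Of the enzymes that remove superoxide and peroxide, Sod2 and Cat differed and the others were not called. Sod2, the manganese superoxide dismutase of mitochondria and a known NF-κB target (chromosome 17, 13006846 to 13040063, plus strand), was at 1491, 1568 and 1567 CPM in the R848 libraries, 209, 192 and 180 under IFN-α and 1671, 1502 and 1477 under both agents. The R848 and combined libraries overlapped and both lay far above IFN-α, by 7.97-fold (2.99 ± 0.089, adjusted p = 2.34e-22) and 8.01-fold (3.00 ± 0.089, adjusted p = 4.43e-22). Between both agents and R848 the change was 0.01 ± 0.080, with a 95% interval of -0.15 to 0.16, but with library totals alone it was -0.38 and was called lower (adjusted p = 0.00919).

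Cat, catalase of the peroxisome (chromosome 2, 103453849 to 103485160, minus strand), was at 112, 118 and 110.2 CPM in the R848 libraries, 61.2, 66.6 and 50.2 under IFN-α and 62.7, 45.3 and 39.8 under both agents. The R848 libraries lay above the others, and the IFN-α and combined libraries overlapped. Cat was higher with R848 than with IFN-α (0.94 ± 0.13), and the combined group was 2.34-fold below R848 (-1.22 ± 0.13, adjusted p = 9.09e-09). Its difference from IFN-α (-0.29, adjusted p = 0.131) was called lower with library totals alone (-0.59, adjusted p = 0.0035), with upper-quartile factors (-0.37, adjusted p = 0.0432) and without combined replicate 1 (-0.49, adjusted p = 0.0118). Sod1, the cytosolic superoxide dismutase, and the selenoproteins Gpx1 and Gpx4, which reduce hydrogen peroxide and lipid peroxides, had group means of 28.7 to 33.6, 116 to 131 and 155 to 176 CPM. Their fitted changes lay between -0.18 ± 0.10 (Gpx4, both against R848) and 0.23 ± 0.15 (Sod1, R848 against IFN-α). With library totals alone all 3 were called lower with both than with R848, at -0.43 for Sod1, -0.43 for Gpx1 and -0.58 for Gpx4 (adjusted p = 0.0247, 0.0062 and 0.0006), and Gpx4 was also called lower than with IFN-α (-0.44, adjusted p = 0.00949). The difference of Gpx4 from R848 was called as well with upper-quartile factors (-0.32, adjusted p = 0.0114) and without R848 replicate 1 (-0.28, adjusted p = 0.00807).

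Osgin1, a growth inhibitor induced by oxidative stress, was the lowest gene (chromosome 8, 119434124 to 119446256, plus strand). It was at 8.10, 6.64 and 7.70 CPM in the R848 libraries, 1.94, 1.45 and 2.23 under IFN-α and 2.61, 1.73 and 2.82 under both agents, from 75, 16 and 25 counts over the groups. The R848 libraries were highest and the others overlapped, with 1.97 ± 0.37 for R848 against IFN-α (adjusted p = 7.41e-05) and -1.58 ± 0.34 for both against R848 (adjusted p = 0.000484).

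For the 23 genes that were higher with R848 than with IFN-α, the level with both agents can be placed on the way from the IFN-α mean (0%) to the R848 mean (100%), as a description. It was under 50% for 16 genes, at 65.8 ± 6.05% for Txnrd1 and 68.0 ± 5.2% for Esd (± SE), and at 90% or more for 5. The shares of all genes called higher with R848 than with IFN-α that lay in these ranges were not counted. Whether such places are particular to the genes described here was thus not tested. Among the 16 were Gclm at 14.1 ± 3.15%, Gclc at 18.0 ± 3.03%, Hmox1 at 21.2 ± 4.17%, Abcc1 at 25.2 ± 1.76%, Srxn1 at 28.2 ± 2.76% and Slc7a11 at 37.6 ± 2.77%. The 5 were Sod2 at 101 ± 4.92%, Nfe2l2 at 109 ± 11.8%, Prdx5 at 119 ± 3.93%, Prdx1 at 227 ± 7.08% and Txn1 at 339 ± 67.7%. The place of Nfe2l2 was thus apart from those of the glutathione genes. With library totals alone 18 genes lay under 50%, Txnrd1 (47.4%) and Esd (35.5%) among them, and 2 at 90% or more, Prdx1 at 130.1% and Txn1 at 133%. Nfe2l2 was then at 56.0%, Sod2 at 73.7%, Prdx5 at 79.3% and Gclm at 5.11%.

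**Figure D5:**
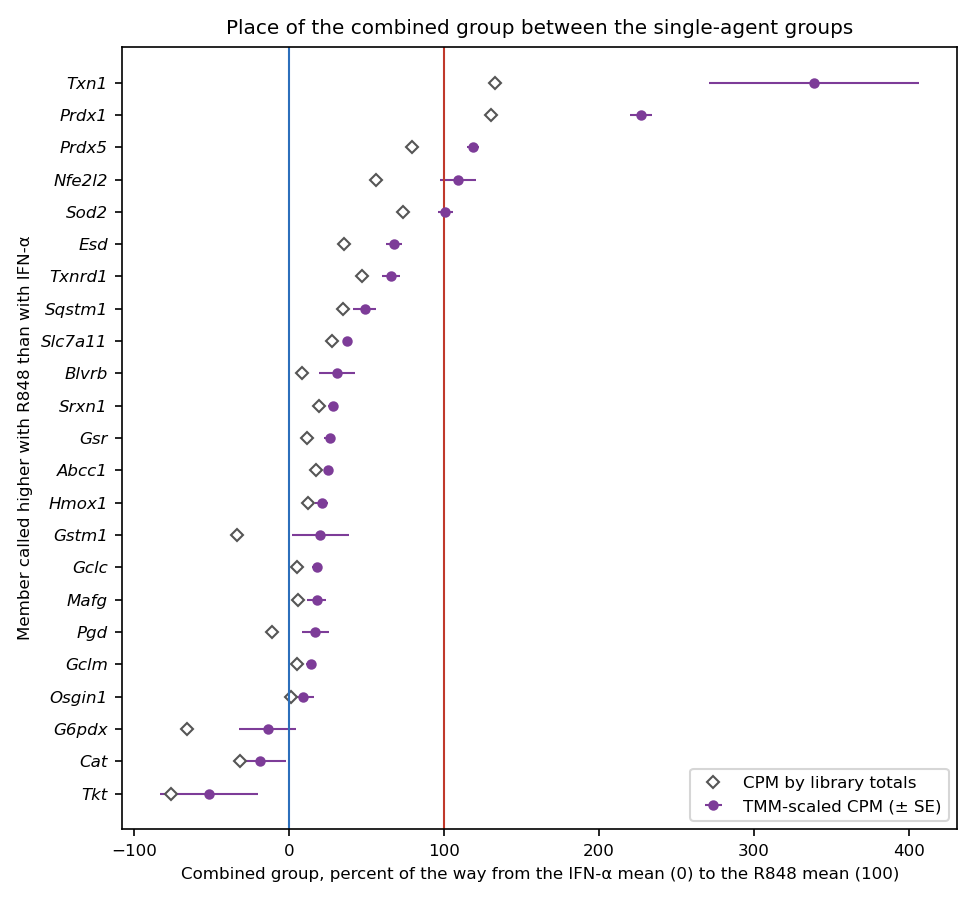
Place of the combined group for the 23 genes higher with R848 than with IFN-α (rows), as percent of the way from the IFN-α mean (0, blue line) to the R848 mean (100, red line), with TMM-scaled CPM as filled points ± SE and CPM by library totals as open diamonds. Of the filled points 16 lie under 50 and 5 at 90 or above, and the diamonds lie to the left of their points.

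Further genes of the pathway were read from lists chosen for their function. Of 82 listed 60 passed the filter. Of these 15 were higher and 13 lower with R848 than with IFN-α, beside 18.4% and 19.0% of all genes. With both against R848 10 were higher and 14 lower, beside 19.2% and 16.7% of all genes. With both against IFN-α 13 were higher and 13 lower, beside 18.5% and 14.7% of all genes. In these comparisons 46.7%, 40.0% and 43.3% of the 60 were called, beside 37.4%, 35.9% and 33.2% of all genes. Their median log2 fold changes were -0.05, 0.02 and -0.09. With library totals alone the combined group had 6 higher and 25 lower against R848 and 6 higher and 23 lower against IFN-α, where 45.3% and 34.2% of all genes were called lower. With upper-quartile factors it had 9 higher and 15 lower against IFN-α, beside 15.4% and 19.0% of all genes. Among the regulators (11 tested of 13) the small MAF genes moved in opposite directions. Maff was at 73.8 ± 3.17, 10.6 ± 2.70 and 55.2 ± 13.7 CPM with R848, IFN-α and both (2.78 ± 0.19 for R848 against IFN-α), and Mafk was at 5.55 ± 2.31, 27.8 ± 4.34 and 30.7 ± 2.70 CPM (-2.33 ± 0.23). Bach1, a repressor that competes with NRF2 for its sites, was lower with R848 (101 ± 7.22 against 223 ± 11.7 CPM) and in between with both (141 ± 13 CPM), though with library totals alone the step from R848 to both (0.47) was 0.08 and not called (adjusted p = 0.631). Nfe2l1, a relative of NRF2, was higher with R848 by 1.53 ± 0.11 and by 1.14 ± 0.11 with both against IFN-α. Trim21, an interferon-induced ubiquitin ligase that acts on p62, was at 13.5 ± 1.69, 56.8 ± 5.45 and 80.2 ± 4.97 CPM, 2.57 ± 0.15 higher with both than with R848 on the log2 scale.

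In the other glutathione and thioredoxin genes (19 tested of 26) 4 were higher and 3 lower with R848 than with IFN-α. Of the 19, 36.8% were called, beside 37.4% of all genes. Glrx, glutaredoxin, had the largest called increases with both agents in this list, with levels of 152 ± 18.3, 58.6 ± 3.51 and 510.5 ± 10.2 CPM and log2 fold changes of 1.75 ± 0.094 against R848 and 3.12 ± 0.10 against IFN-α. Msrb1, a methionine sulfoxide reductase, went the other way at 67.2 ± 4.81, 207 ± 28.2 and 54.4 ± 4.57 CPM (-1.62 ± 0.11 for R848 against IFN-α). Chac1, which degrades glutathione, and Sod3, the extracellular superoxide dismutase, were higher with R848 than with IFN-α by 1.40 ± 0.34 and 1.03 ± 0.24 and with both by 1.28 ± 0.34 and 1.23 ± 0.24. Against R848 the combined group was lower for the amino acid transporter Slc1a5 (-1.31 ± 0.44) and mitochondrial Prdx3 (-0.40 ± 0.14) and higher for Prdx4 of the endoplasmic reticulum (0.40 ± 0.14). The call of Slc1a5 ended with the DESeq2 Wald test and without R848 or combined replicate 1 (adjusted p from 0.0708 to 0.152). That of Prdx3 ended with the DESeq2 Wald test and without R848 replicate 2 or 3 or combined replicate 2 or 3 (adjusted p from 0.0526 to 0.149). That of Prdx4 ended with library totals (0.00) or upper-quartile factors (0.26) and without R848 replicate 3 or combined replicate 2 or 3 (adjusted p from 0.0636 to 0.989).

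Of the other detoxification genes 17 of 29 were tested, and 3 were higher and 2 lower with R848 than with IFN-α. Of the 17, 29.4% were called, beside 37.4% of all genes. The carbonyl reductase gene Cbr3 (0.89 ± 0.26) and the exporter gene Abcc4 (1.33 ± 0.38) were higher with R848 and lower with both than with R848 (-1.08 ± 0.26 and -1.05 ± 0.35), the direction of most of the 34 genes. Akr1b10 (-1.06 ± 0.17) and the aldehyde reductase gene Akr1a1 (-0.56 ± 0.077) were lower under R848 than under IFN-α, and Akr1a1 was higher with both than with R848 (0.80 ± 0.077). Ptgr1, which reduces prostaglandins and enals, was lower with both than with R848 (-0.51 ± 0.19), while Abcc5 (0.54 ± 0.16) and Ephx1 (0.40 ± 0.14) were higher and Cbr1 lower (-0.56 ± 0.22) with both than with IFN-α. Several of these calls ended in alternatives. That of Abcc4 between the single agents ended without IFN-α replicate 2 (adjusted p = 0.0522), and that for both against R848 with the DESeq2 Wald test and without R848 replicate 1 or combined replicate 3 (adjusted p from 0.0747 to 0.157). Those of Ptgr1, Ephx1 and Cbr1 each ended with the DESeq2 Wald test (adjusted p = 0.129, 0.0527 and 0.132) and in at least 4 cases of a library left out, and those of Abcc5 and Ephx1 with library totals alone (0.22 and 0.08, adjusted p = 0.307 and 0.697).

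Of the other NADPH, haem and iron genes 13 of 14 were tested, with 5 higher and 5 lower with R848 than with IFN-α. Of the 13, 76.9% were called, beside 37.4% of all genes. Slc48a1, a haem transporter, was at 399.8 ± 57.9, 132 ± 10.7 and 130.3 ± 13.2 CPM, so the combined group was at the IFN-α level (-0.03 ± 0.11) and below R848 (-1.63 ± 0.11). Slc40a1, the iron exporter ferroportin, was lower with both than with either agent, at -1.69 ± 0.15 against R848 and -0.73 ± 0.16 against IFN-α. Fth1, the ferritin heavy chain, was higher with R848 than with IFN-α (1.45 ± 0.085) and not called between both and R848 (-0.19 ± 0.083), while Ftl1, the light chain, was lower with both than with R848 (-0.90 ± 0.095). Both ferritin genes have processed pseudogenes, so their counts are uncertain. Hmox2, the constitutive haem oxygenase, ran opposite to Hmox1, at 38.3 ± 6.62, 145 ± 8.06 and 112 ± 10.7 CPM (-1.92 ± 0.12 for R848 against IFN-α). Rpe was lower with R848 than with IFN-α (-0.96 ± 0.12), and Rpia and Blvra were lower with both than with IFN-α (-1.07 ± 0.20 and -0.61 ± 0.16). Rpia was at 16.8 ± 2.09, 29.0 ± 5.18 and 14.3 ± 3.36 CPM with R848, IFN-α and both. Blvra was at 26.2 ± 4.36, 40.2 ± 1.0 and 26.1 ± 5.73 CPM in the same order. The means of these 2 genes with R848 alone thus also lay below those with IFN-α.

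Per kilobase of the longest coding transcript, Prdx1 had the highest level of the 34 genes in each group, at 1145 ± 19.1, 726 ± 6.76 and 1679 ± 26.0 CPM per kilobase with R848, IFN-α and both. Next with R848 came Hmox1 at 989.7 ± 275 and Sqstm1 at 869.7 ± 188 CPM per kilobase. R848 replicate 1 was the highest R848 library for both genes, and a difference between them was not tested. With IFN-α the next were Txn1 at 243 ± 11.1 and Prdx5 at 213 ± 12.1, and Hmox1 and Sqstm1 were 6th and 10th. Slc7a11 was 11th with R848, 29th with IFN-α and 15th with both (193 ± 21.9, 7.45 ± 1.47 and 77.1 ± 3.20 CPM per kilobase). Osgin1 was lowest in each group. Transcripts of 11 of the 34 genes share at least 101 bases at 95% identity or more with another annotated gene (Mafg, Slc7a11, Gclm, Txn1, Prdx1, Me1, Gstm1, Esd, Sod1, Sod2 and Gpx4), among them Me1 with Gm7049 over 1716 bases and Gpx4 with Gpx4-ps2 over 762 bases. For Mafg the other gene is Sirt7, whose exon overlaps that of Mafg on the same strand, and the level of Mafg is uncertain through this overlap. STAR leaves out of its gene counts any read that maps to more places than 1, so the levels of the others are uncertain. For Gclm the longest match was 103 bases, beside 5589 bases of its longest coding transcript.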

How the data were processed

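RNA was sequenced in 9 libraries, 3 each from microglia treated with R848, IFN-α or both, as ribosomal-RNA-depleted directional libraries with paired reads of 101 cycles. Each library's file as deposited by the authors gives gene counts from STAR (unstranded, forward strand and reverse strand) as whole numbers without normalization. Per the submitters' processing notes, reads were handled with CASAVA 1.8.2, Trimmomatic 0.33 and STAR 2.5.1, DESeq2 was also used, and the genome build was mm10. The gene annotation is not stated there.

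Reverse-strand counts were used, since forward-strand counts were 1.09% to 1.5% of both strands. Rows that name no gene were left out. The ribosomal transcript Rn45s held 13.3% to 26.1% of gene counts. Genes were filtered with filterByExpr (minimum count 10, minimum total 15, by group), scaled with TMM and fitted as group means over all libraries (R 4.3.3, edgeR 4.0.16, limma 3.58.1, robust quasi-likelihood F test, biological coefficient of variation 0.0955). Calls were made at a Benjamini-Hochberg adjusted p under 0.05 over 11002 genes, and a gene lay above or below both single agents if the larger of its p-values against them passed with changes of the same sign. CPM is counts relative to TMM-scaled library totals. Errors are SD for CPM and an approximate SE, derived from F, for log2 fold changes. The fit was tested on simulated counts with the same spread for all genes and 65 or 66 genes per fold changed in the combined group. Against R848 it recovered 55.4% of 1.5-fold, 86.4% of 2-fold and 97% of 4-fold changes. Against IFN-α it recovered 52.3%, 78.8% and 98.5%. Of unchanged genes it called 0.122% at most. Small changes can thus be missed. Alternatives were other scalings (DESeq2 size factors, upper quartile, library totals), the DESeq2 1.42.0 Wald test, other filters, unstranded counts, no Rn45s, only the groups compared, a replicate block and each library left out.

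The labels do not say whether replicates came from separate cultures, so p-values measure the spread between libraries, which may be technical. Replicate pairs differed by more than sampling noise (chi-square per degree of freedom 1.92 to 6.27 without Rn45s, over genes with at least 20 summed counts), and each library counted as 1 sample. The 34 genes and all lists were chosen with earlier results of these data known. One gene of the microglial marker list is not reported here and was left out of its sums. Values in each library are given for genes called with an absolute log2 fold change of at least 1 and for Nfe2l2 and Keap1, and of each further list up to 4 called genes per comparison with the largest change are named. Positions and lengths are from GENCODE mouse release M21 on GRCm38, the assembly mm10 names, promoter windows are from RefSeq on GRCm38.p6, and near-identical transcripts were found with BLAST 2.17.0. Binomial intervals are exact Clopper-Pearson and cover counting error only.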

Additional observations from a re-analysis of the deposited data

Results flagged for a closer look

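Reads on the strand opposite to the gene entered only the alternative run with unstranded counts. Their share stood above the highest share of any library as a whole (1.5%) for 3 of the 34 genes. This was judged by the lower bound of the 95% exact binomial interval. For Osgin1 (4.13%, interval 1.36% to 9.38%) and G6pdx (1.65%, 1.21% to 2.2%) the share was higher than 1.5% but the interval reached below it. Over all libraries the opposite-strand share was 3.26% for Mafg, 1.76% for Slc7a11 and 5.06% for Gss. For Slc7a11 it was 1.13% with R848 (95% exact binomial interval 0.977% to 1.29%), 14.7% with IFN-α (12.2% to 17.6%) and 2.09% with both (1.77% to 2.45%). The opposite-strand reads of Slc7a11 numbered 202, 102 and 152, beside 17726, 591 and 7118 on the strand of the gene. The high share with IFN-α thus came with the fewest reads on either strand. For Gss the share was 3.34%, 9.09% and 3.20%, and for Mafg 3.37%, 6.58% and 0.851%, in the same order. Exons of Acss2, Gssos1 and Gssos2 lie opposite Gss, exons of Gm2345, Gm37826 and Gm37854 lie opposite Slc7a11 within its span, and none was annotated opposite Mafg. Groups of 3 libraries are too small for the test of a single outlying sample.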

How the results depend on the processing

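Of 102 values (34 genes in 3 comparisons) 69 were called. Of these 53 kept call and direction in each alternative run, 16 lost the call in at least 1, and 1 changed direction, Mgst1 for both against R848 (-0.11 with library totals). Of the values not called, 11 gained a call with the same sign and 20 changed sign in at least 1 alternative. Among those that changed sign, Nfe2l2 and Sod2 were called lower with both than with R848 under library totals (-0.34 and -0.38). Scaling moved the most. With library totals the 34 genes gave 1 higher against R848 and 7 lower against IFN-α for the combined group, 0 above and 4 below both single agents, and the 60 further pathway genes gave 6 higher and 25 lower against R848 and 6 higher and 23 lower against IFN-α. With upper-quartile factors 1 member lay below both. With the DESeq2 Wald test 7 further pathway genes were lower against R848 and 1 member was lower against IFN-α. Leaving out each library gave 7 to 14 further genes lower against R848 (7 without combined replicate 3), 1 to 3 members lower against IFN-α (1 without IFN-α replicate 1 or 2 or combined replicate 3) and 0 to 1 below both (1 without R848 or combined replicate 1). The cause of these shifts was not tested.

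Of 78 called values of further pathway genes 46 kept call and direction in each alternative run, and 3 changed sign with library totals: Akr1a1 against IFN-α (-0.07), and Prdx2 (-0.11) and Prdx4 (0.00) against R848, for both agents. The members' values that changed sign, apart from that of Mgst1, were not called with TMM factors and all libraries. For both against R848, library totals gave -0.34 for Nfe2l2, -0.22 for Prdx5 and Nqo1, -0.23 for Gsta4 and -0.38 for Sod2, upper-quartile factors gave -0.08 for Nfe2l2 and -0.13 for Sod2, the stricter filter gave 0.00 for Sod2 and unstranded counts gave 0.04 for Me1. For both against IFN-α, library totals gave -0.14 for Pgd, -0.27 for Nqo1, -0.21 for Gstm1, -0.09 for Gsta4, -0.11 for Sod1 and -0.19 for Gpx1, and upper-quartile factors gave -0.03 for Nqo1. With each library left out the ranges were, for R848 against IFN-α, -0.01 to 0.13 (Prdx6), -0.01 to 0.26 (Taldo1), -0.34 to 0.08 (Nqo1), -0.09 to 0.22 (Gsta4) and -0.02 to 0.14 (Gpx4). For both against R848 they were -0.02 to 0.10 (Nfe2l2), -0.15 to 0.13 (Me1), -0.09 to 0.02 (Sod1), -0.05 to 0.04 (Sod2) and -0.08 to 0.04 (Gpx1), and for both against IFN-α -0.14 to 0.05 (Gss), -0.16 to 0.25 (Nqo1) and 0.00 to 0.17 (Gstm1).

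No pairing of libraries by replicate number was seen. Between groups, deviations of same-numbered libraries correlated at -0.105 to 0.063 and those of other pairs at -0.09 to 0.063. With 3 libraries per group this cannot exclude that same-numbered libraries shared a culture. With the replicate number as a block the members gave 23 higher and 2 lower, 5 higher and 18 lower, and 18 higher and 3 lower in the 3 comparisons, as without it. Low depth limits Osgin1, Nqo1, Me1 and Taldo1, and small differences such as those of Keap1, Mafg and Tkt against IFN-α were near the threshold.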
